A study of Homo sapiens with 8 samples.

Results

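The genes described here make and guard the S phase: the MCM helicase and the proteins that load and fire it, the sliding clamp PCNA and its loader RFC, the DNA polymerases and primase, the single-strand DNA binding protein RPA, the enzymes that join Okazaki fragments, the enzymes that supply deoxynucleotides, and the regulators and chromatin factors that act at the same time. The members were the 47 gene symbols of a fixed list of S phase and DNA replication genes, and every probe set annotated to one of these symbols and to no other gene was used. All 47 had such a probe set, of 19775 genes on the array, and together they had 84 of the 41091 probe sets with a single symbol. The selection rule used the symbols and no expression value, but the list was drawn up with earlier results of these data known. After the filter on low signals all 47 genes were among the 12672 genes tested, with 79 of the 84 probe sets.

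DNA replication is licensed in G1, when the origin recognition complex (ORC) with CDC6 and CDT1 loads the MCM2 to MCM7 hexamer onto DNA. The kinase CDC7 with its activator DBF4, and the cyclin E kinase, then recruit CDC45 and the GINS complex, which turn the hexamer into the active helicase. Transcription of many of these genes is held back by the RB protein and is released by E2F factors late in G1, so their mRNA levels are widely used as a readout of how many cells in a culture enter S phase.

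A375, a human melanoma cell line, was profiled on 8 Affymetrix HG-U133 Plus2 microarrays in 4 groups with 2 arrays apiece. A pair of inducible short hairpin lines was used, and both carried the hairpin on a tetracycline-inducible lentiviral vector as a pool of puromycin-selected cells: shNTC, a control hairpin, and shHSF1, a hairpin against HSF1, the transcription factor of the heat shock response. The control arrays came from shNTC cells that received only the solvent, 0.1% DMSO, and the Doxycycline arrays from shNTC cells that received Doxycycline as well as 0.1% DMSO. The inhibitor arrays came from shHSF1 cells that received the HSP90 inhibitor NVP-HSP990 at 100 nM without Doxycycline, and the knockdown arrays from shHSF1 cells that received Doxycycline before NVP-HSP990 at 100 nM. DMSO or the inhibitor was given for 3 h, and Doxycycline at 100 ng/ml for 3 days. The growth notes give Doxycycline for every line, whereas the sample titles separate arrays with it from those without, and the titles were used here. The inhibitor was given to shHSF1 cells alone and DMSO to shNTC cells alone, so the inhibitor and the line cannot be told apart. The titles mark the second array of each group as a repeat, and the labels do not say whether it came from a separate culture, and the p-values therefore reflect how far the arrays of a group lay apart, which may be a technical spread.

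The values are MAS5 signals, which have no unit and can be compared for the same probe set between arrays but not between genes. HSF1 itself read 99 and 42.5 in the inhibitor arrays and 5.5 and 7.3 in the knockdown arrays. HSPA6, an inducible HSP70 gene, read 1680.8 and 1328.5 in the inhibitor arrays and 18.3 and 12.4 in the knockdown arrays, against 5.1 to 15.5 in the 4 shNTC arrays. The ratio of 3-prime to 5-prime ACTB signal, a measure of RNA quality, ran from 4.73 to 18.9 in 7 arrays and was 46.8 in the second Doxycycline array. Of 10 melanocyte lineage genes, 5 passed the filter, among them MITF and SOX10, while PMEL, MLANA, TYR and TYRP1 had signals of 11.7 or less in every array. None of 5 colon epithelial genes and only SERPINA1 of 5 hepatocyte genes passed the filter, with ALB at 4.3 or less. Of 5 fibroblast genes 4 passed, and their list summed to 495.9 to 639.8 in 6 arrays and to 928.3 and 890.7 in the knockdown arrays, mostly from LUM (0.71 with knockdown, adjusted p = 0.0385 by limma), while COL1A1 had -0.38 and DCN -0.15. The hepatocyte list summed to 54.3 to 100.1 in the same 6 arrays and to 45.6 and 30.9 in the knockdown arrays, mostly from SERPINA1 (-1.34, adjusted p = 0.0509 by limma), and SERPINA1 passed against the Doxycycline arrays (-1.31, adjusted p = 0.0381 by limma). All 5 tested melanocyte lineage genes had knockdown values below 0, from -1.03 for S100B (adjusted p = 0.105 by limma) to -0.11 for PAX3, and none passed. The part of these shifts in the results below was not tested.

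A motif of E2F factors, which no rule had used, was more frequent in promoters of the replication genes than in those of all genes. Many of these genes are regulated by E2F, as described above, so the motif is not independent of what the list holds. The E2F motif was searched as TTTCCCGC, TTTCGCGC, TTTGCCGC or TTTGGCGC on both strands, in the 250 bases before and the 50 after each annotated start (RefSeq, GRCh38.p14). The table held promoters of 40 of the 47 genes, and 20 of these 40 genes (50%) had a match, against 6.49% of the tested genes with a promoter in the table and 3.99% of all genes in it. By window, 21 of 53 windows of the replication genes (39.6%) held a match, against 3.31% of 35116 windows. CCAAT, searched on both strands, was in 52.8% of the windows of the replication genes and in 34.6% of all windows. A part of the heat shock element, searched as GAANNTTC or TTCNNGAA, was in 3 of the 53 windows of the replication genes (5.66%). It was in 13.5% of all windows and in 10.7% of those of tested genes. Such a match is a run of letters and not a measured binding site. The promoter of MCM6 is printed because it held the most E2F matches, those of MCM3 and E2F1 because they carried matches of both orientations or spellings, and that of RPA1 because it held none although RPA1 changed most. E2F matches are in capitals, and overlapping matches appear as 1 run.
MCM6, chr2:135876394-135876693, minus strand: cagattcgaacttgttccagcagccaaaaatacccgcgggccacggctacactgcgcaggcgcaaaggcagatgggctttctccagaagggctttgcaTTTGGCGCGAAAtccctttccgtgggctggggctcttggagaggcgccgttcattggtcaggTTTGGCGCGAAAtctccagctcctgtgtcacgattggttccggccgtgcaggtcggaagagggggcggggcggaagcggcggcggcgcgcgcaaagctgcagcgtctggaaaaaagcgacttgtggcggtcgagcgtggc
MCM3, chr6:52284693-52284992, minus strand: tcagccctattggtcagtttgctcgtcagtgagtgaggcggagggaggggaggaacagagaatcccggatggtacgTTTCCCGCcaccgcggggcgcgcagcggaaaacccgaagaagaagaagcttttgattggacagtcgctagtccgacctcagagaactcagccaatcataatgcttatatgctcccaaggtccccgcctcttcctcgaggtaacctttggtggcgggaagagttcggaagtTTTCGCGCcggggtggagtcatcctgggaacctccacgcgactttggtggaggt
E2F1, chr20:33686336-33686635, minus strand: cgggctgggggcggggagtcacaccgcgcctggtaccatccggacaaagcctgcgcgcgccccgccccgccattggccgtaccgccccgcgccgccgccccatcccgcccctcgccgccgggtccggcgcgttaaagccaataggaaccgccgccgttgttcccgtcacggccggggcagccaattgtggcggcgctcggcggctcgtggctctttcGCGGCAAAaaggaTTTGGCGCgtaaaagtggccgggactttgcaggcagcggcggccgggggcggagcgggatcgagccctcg
RPA1, chr17:1829755-1830054, plus strand: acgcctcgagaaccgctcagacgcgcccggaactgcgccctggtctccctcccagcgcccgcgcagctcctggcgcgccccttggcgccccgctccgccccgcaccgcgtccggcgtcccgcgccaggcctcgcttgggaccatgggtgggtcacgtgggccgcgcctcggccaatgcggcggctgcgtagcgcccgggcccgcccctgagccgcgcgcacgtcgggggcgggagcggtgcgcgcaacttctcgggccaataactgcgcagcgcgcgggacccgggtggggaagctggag
In MCM6 the 4 matches form 2 pairs, each a TTTGGCGC that overlaps a match read on the other strand. MCM3 and E2F1 held 2 matches each. The RPA1 window held no E2F match and 2 CCAAT boxes.

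The first comparison asked which replication genes moved when HSF1 was knocked down under HSP90 inhibition, from the inhibitor arrays to the knockdown arrays. All shHSF1 cells carried the same hairpin, so loss of HSF1 and other effects of that hairpin cannot be told apart. With the brightest probe set standing for each gene, RPA1 alone was called. RPA1 is the large subunit of replication protein A, which coats the single-stranded DNA behind the helicase. The other 46 did not pass this test, though MCM10, RFC5, GINS2 and ORC1 passed under some other settings given below or at the end. By limma with Benjamini-Hochberg adjustment over all 12672 genes, 0 replication genes were higher and 1 was lower, while 0.994% of all genes were called higher, 1.85% lower and 2.84% in either direction. The share among the replication genes, 1 of 47, was thus near the background. The median change of the 47 genes was -0.15 on the log2 scale, beside 0.00 for all genes tested, and 38 of 47 (80.9%) lay below 0 against 49.8% of all genes. These values rest on the brightest probe set, and of 23 members with several tested probe sets 13 had the same sign in all of them. Over the 79 tested probe sets taken singly the median was -0.13, beside 0.01 for all probe sets. The arrays of the 2 groups did not overlap for 21 of the 47 genes in the lower direction and for 2 in the higher direction, beside 21.8% and 21.5% of all genes. At an unadjusted p under 0.05 there were 8 replication genes, 7 of them lower, beside 15.3% of all genes. In such bulk RNA, fewer cells in S phase and less RNA per cell cannot be told apart.

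**Figure D1:**
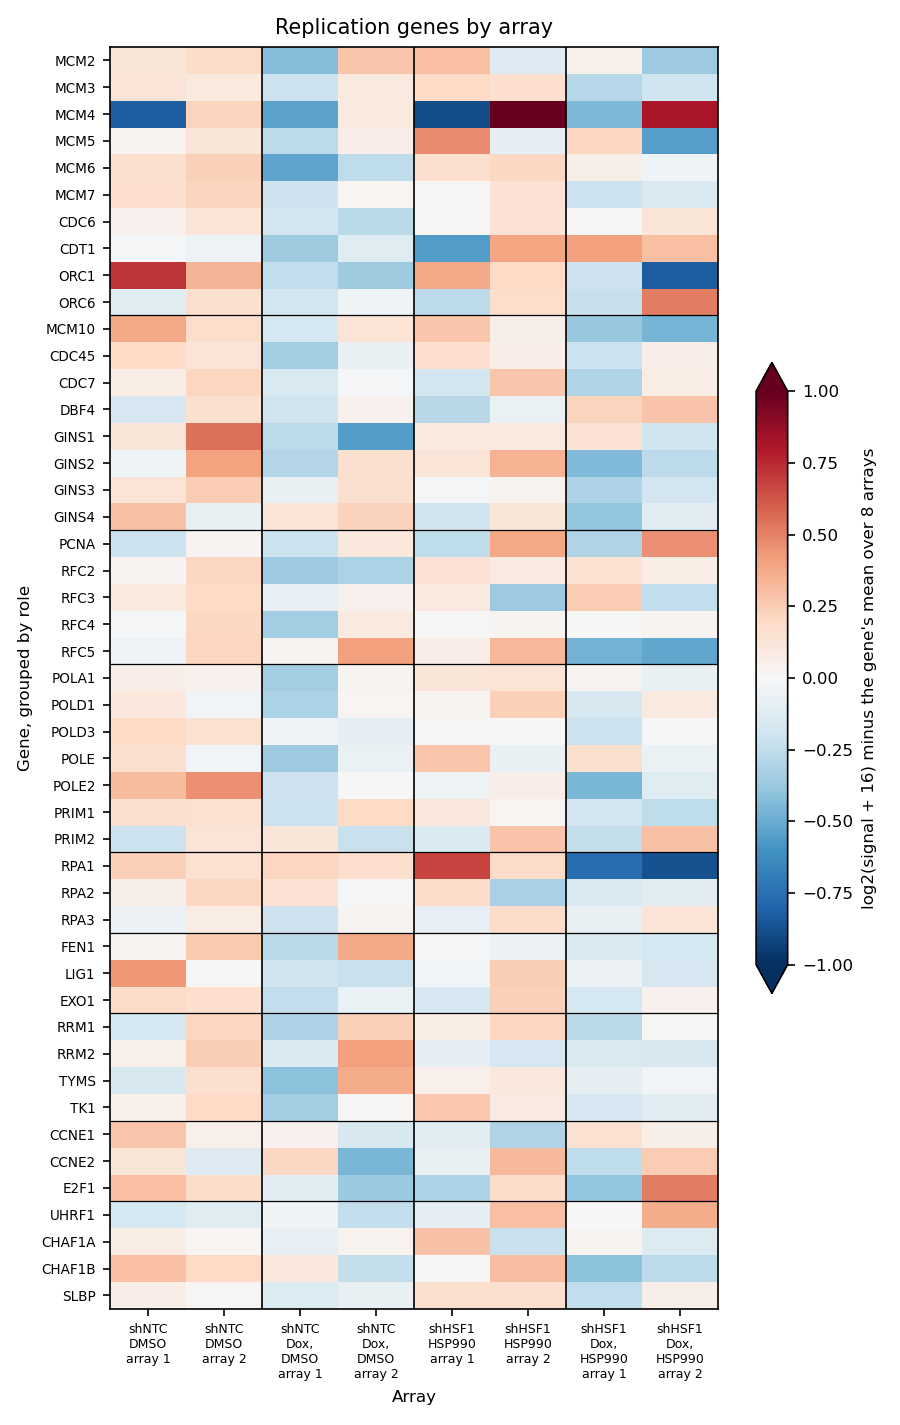
Heat map of the 47 replication genes (rows, grouped by role) in the 8 arrays (columns), where colour gives log2(signal + 16) minus the gene's own mean over the 8 arrays, capped at 1 in either direction. RPA1 is low in both knockdown arrays (shHSF1 Dox, HSP990), and MCM4 is high in the second arrays of the shHSF1 groups.

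RPA1 had signals of 1118.8 and 1056.3 in the control arrays, 1099.5 and 1068.7 in the Doxycycline arrays, 1518.9 and 1084.3 in the inhibitor arrays, and 550.9 and 510.1 in the knockdown arrays. The last 2 arrays lay below all 6 others, and the other 3 groups overlapped. RPA1 fell by 1.25 on the log2 scale with knockdown (SE 0.17, adjusted p = 0.00434 by limma), which is 2.38-fold on the log2(signal + 16) scale. Doxycycline in shNTC cells gave a change of -0.00 (SE 0.17). The difference between these 2 Doxycycline effects, the interaction of hairpin line and Doxycycline, was -1.25 (SE 0.25, adjusted p = 0.0516 by limma), which just missed the threshold, so the effect is not shown to differ between the lines. A second RPA1 probe set read 342.6 and 342.7 with the inhibitor and 139.4 and 157.8 after knockdown, a log2 change of -1.13 (adjusted p = 0.0176 by limma with every probe set tested singly). The third was dim, with 21.9 and 21.3 against 4.1 and 9.2, and did not pass (-0.74, adjusted p = 0.101 by limma). RPA1 was called in 21 of 22 alternative settings of the knockdown comparison, and its change ran from -1.49 to -1.01. The exception was the methods' t-test, which gave the same change with an adjusted p of 0.413.

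RPA2 and RPA3, the smaller subunits of the same complex, did not pass the test. RPA2 had signals of 551.5 and 381 with the inhibitor and of 432.4 and 446.5 after knockdown, a log2 change of -0.06 with overlapping arrays. RPA3 had 1325.3 and 1597.9 against 1337.4 and 1539.3, a change of -0.02. The difference between RPA1 and its partners was not tested.

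Among the 10 origin licensing genes 0 were called, and 8 of 10 had a change below 0, with a median of -0.21. ORC1, the largest subunit of the origin recognition complex and an E2F target, showed the lowest value of the group. Its signals were 179.9 and 157.2 with the inhibitor and 114.7 and 69.4 after knockdown, without overlap (-0.80, SE 0.24, unadjusted p = 0.00713, adjusted p = 0.119 by limma). It read 232.3 and 174.6 in the control arrays and 111.2 and 102.2 in the Doxycycline arrays, so all 4 arrays with Doxycycline lay below all 4 without. MCM3, a subunit of the helicase ring, had 662.4 and 648.4 against 469.5 and 498.4 (-0.43, adjusted p = 0.202 by limma). The other MCM subunits had changes from -0.36 for MCM5 to -0.15 for MCM4, each with an interval that included 0. CDT1, the licensing factor that is destroyed in S phase, had the highest value of all 47 genes, 0.44 (SE 0.26), with 212.6 and 425.7 against 431.2 and 396.8. The groups overlapped, and the first inhibitor array lay far below the other shHSF1 arrays. The shNTC arrays read from 246.5 to 316.2. The second probe set of CDT1 gave -0.06.

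Of the 8 helicase activation genes 0 were called at the brightest probe set, and 7 of 8 were below 0. MCM10, which helps to assemble the active helicase, had signals of 487.7 and 416.9 with the inhibitor and 304.9 and 286 after knockdown (-0.58, SE 0.17, adjusted p = 0.111 by limma). Its other probe sets gave larger changes and passed when every probe set was tested singly, where 1.88% of all probe sets were called. The dimmest of the 3 read 288.2 and 339.6 against 138.6 and 154.2 (-1.02, adjusted p = 0.0185 by limma), and the middle one read 396.1 and 415.9 against 217.2 and 239.7 (-0.79, adjusted p = 0.0427 by limma). All 3 probe sets of MCM10 were therefore lower in both arrays, and the call depended on which of them stood for the gene. GINS2, a subunit of the GINS complex, had 693.5 and 807.2 against 459.5 and 524.9 (-0.59, SE 0.20, adjusted p = 0.178 by limma). Its second tested probe set gave -0.57 but was dim, with 20.4 and 27.4 against 7.3 and 14.7, near the array medians. DBF4, the activating subunit of the CDC7 kinase, was the only gene of the group with a positive value, 823.7 and 955.5 against 1170.2 and 1221.1 (0.42, SE 0.17, adjusted p = 0.255 by limma). CDC45 and the other GINS subunits had values from -0.26 for GINS3 to -0.13 for GINS1.

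**Figure D2:**
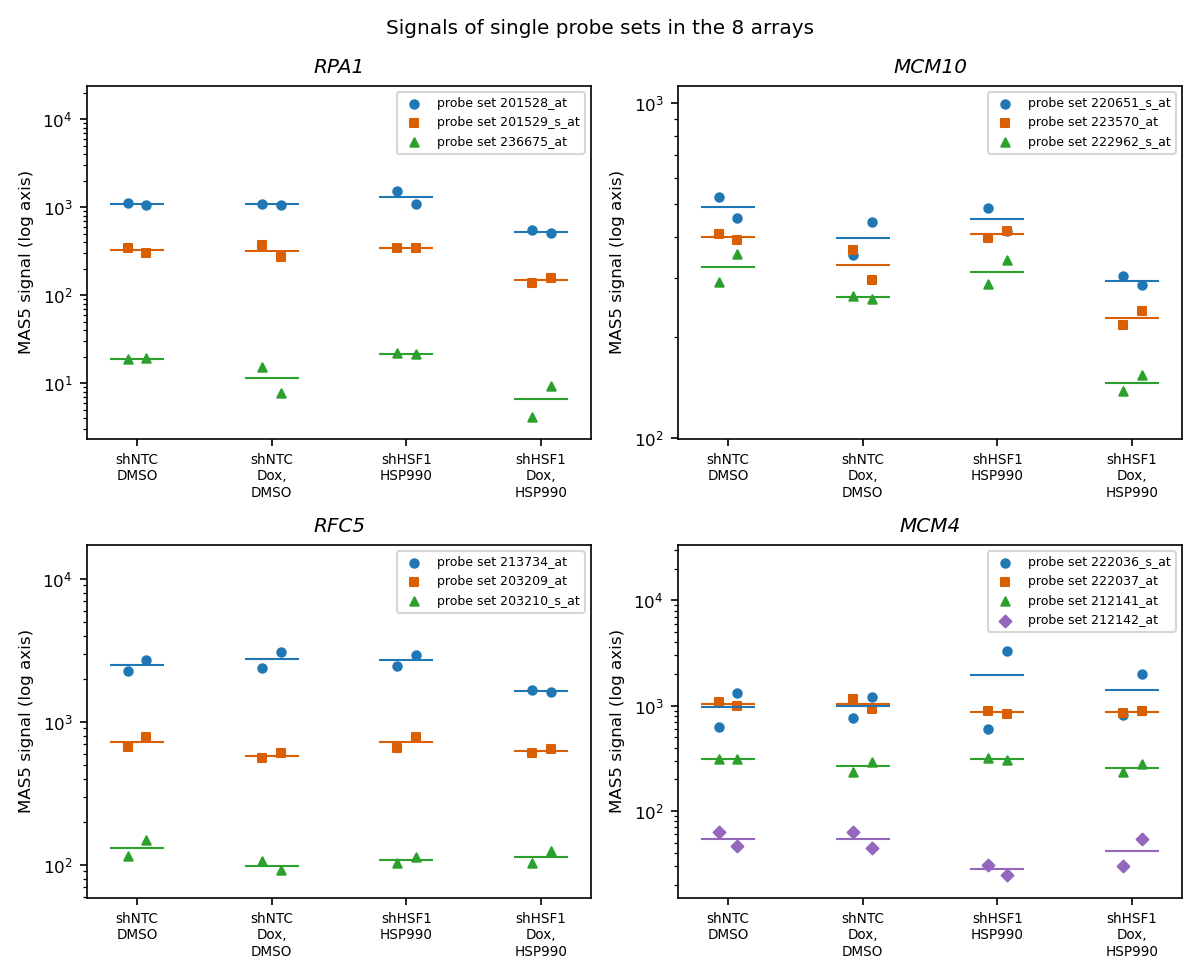
MAS5 signal (log axis) of every tested probe set of RPA1, MCM10, RFC5 and MCM4 in the 4 groups, where points are arrays and bars are the means of 2 arrays. All RPA1 and MCM10 probe sets are lowest in the knockdown arrays (shHSF1 Dox, HSP990) except the dimmest RPA1 one, where 1 Doxycycline array overlaps, whereas for RFC5 only the brightest is, and only the MCM4 probe set drawn as circles has its second array above its first in all 4 groups.

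Of the sliding clamp and its loader, 0 of 5 genes were called and the median change was 0.01. RFC5, a small subunit of the clamp loader, had signals of 2442.7 and 2931.4 with the inhibitor and 1674.9 and 1617.8 after knockdown at the brightest probe set, below all 6 other arrays (-0.70, SE 0.19, adjusted p = 0.0836 by limma). The other RFC5 probe sets did not move with it. They gave -0.19 for the second, with 656.1 and 790.4 against 609.1 and 649.8, and 0.05 for the third, with 104 and 113.6 against 102.5 and 124.5. PCNA, the clamp itself, had 1439.3 and 2249.2 against 1394.7 and 2362.4 and a change of 0.01, and its 2 arrays of a group lay far apart in both. RFC2, RFC3 and RFC4 had values from -0.00 to 0.14.

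All 7 polymerase and primase genes had values below 0 and 0 were called, with a range of -0.30 to -0.04 and a median of -0.15. POLE2, the second subunit of the leading strand polymerase, had the lowest, with 468.8 and 511.8 against 350.1 and 447.2 (-0.30, SE 0.17). All 7 intervals lay within a change of 1 log2 unit in either direction. The 3 genes of flap and nick processing, FEN1, EXO1 and the ligase LIG1, had values from -0.22 to -0.10. LIG1 read 55.7 and 70.8 against 54.4 and 49.1 (-0.22, SE 0.22).

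The 4 genes of nucleotide supply, the ribonucleotide reductase subunits RRM1 and RRM2, thymidylate synthase TYMS and thymidine kinase TK1, had values from -0.32 to -0.01, with 0 called. TK1 read 369.6 and 325.7 with the inhibitor and 269.6 and 281.1 after knockdown (-0.32, SE 0.18), without overlap, and its second probe set gave -0.33. Of the G1/S regulators, CCNE1, which encodes cyclin E1, read 515.4 and 449.6 against 621.2 and 581.5 (0.31, SE 0.16, adjusted p = 0.398 by limma), and E2F1 and CCNE2 had 0.13 and -0.12 with overlapping arrays. Of the chromatin and histone supply genes, CHAF1B, a subunit of the chromatin assembly factor that places histones on new DNA, read 108.5 and 138.5 against 78.1 and 88.1 (-0.49, SE 0.21, adjusted p = 0.298 by limma). UHRF1, CHAF1A and SLBP had values from -0.26 to 0.08.

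**Figure D3:**
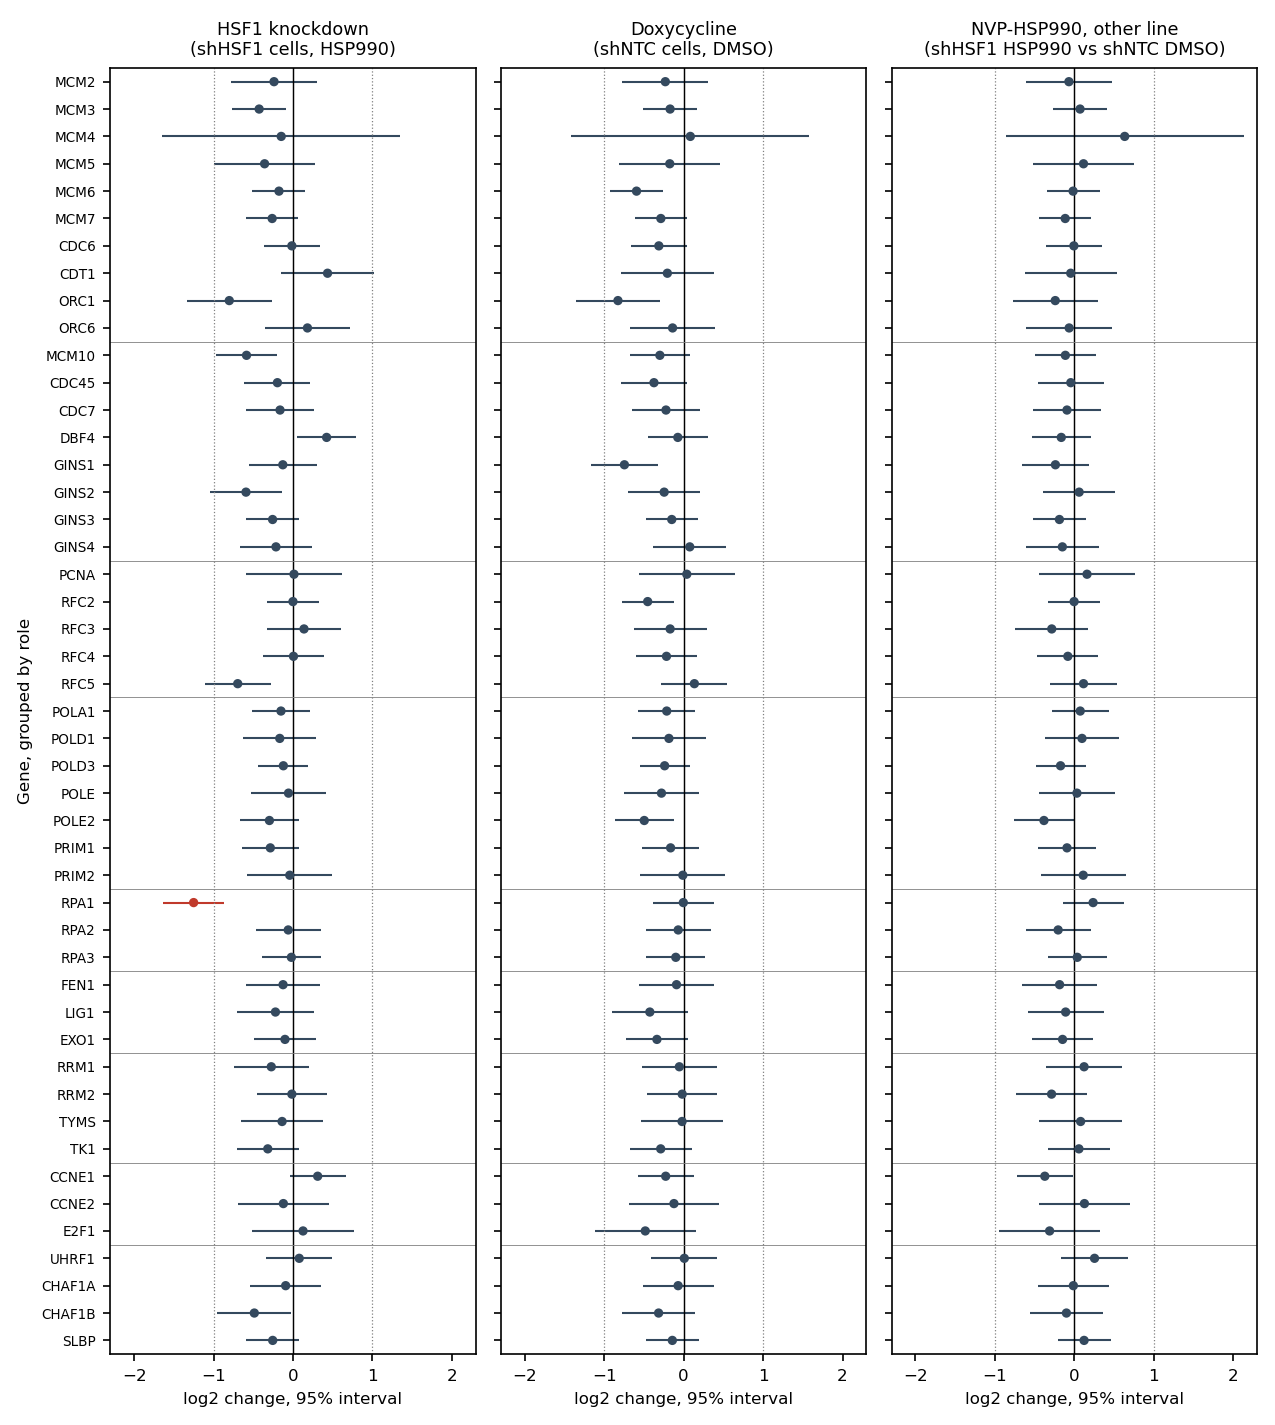
Log2 change and 95% interval of the 47 replication genes, grouped by role, for HSF1 knockdown, for the Doxycycline arrays against the control arrays, and for the inhibitor arrays against the control arrays. The red point is RPA1 in the knockdown panel, with -1.25, and every other point has an adjusted p at or above 0.05.

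The precision of the knockdown comparison bounds what could be seen. The median half-width of the 95% interval was 0.42 log2 units, and for 41 of 47 genes the interval lay within a change of 1 log2 unit in either direction, beside 86.4% of all genes tested. Changes below that size are not excluded for genes that missed the threshold. The pooled SD between arrays of a group had a median of 0.19 over the 47 genes, as it did over all genes, and was highest for MCM4 at 1.07.

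The next comparison set the inhibitor arrays against the control arrays, and so holds 3 h of inhibitor together with the difference between lines. By limma 0 of 47 replication genes were called in either direction, where 0.221% of all genes were called. At an unadjusted p under 0.05 there were 2 replication genes, both lower, beside 4.96% of all genes, and the methods' t-test gave 3 before and 0 after Benjamini-Hochberg adjustment. The median change was -0.05 beside 0.01 for all genes, and 46 of 47 intervals lay within 1 log2 unit, beside 93.9% of all genes. POLE2 had the lowest value, 612.5 and 675.6 in the control arrays and 468.8 and 511.8 with the inhibitor (-0.38, SE 0.17, adjusted p = 0.998 by limma). CCNE1 had 681.1 and 578 against 515.4 and 449.6 (-0.37, SE 0.16, adjusted p = 0.966 by limma), so the arrays of these groups did not overlap. E2F1 had 216 and 197.7 against 135 and 197.3 (-0.31, SE 0.29). MCM4 had the highest value, 0.63 (SE 0.68), from signals of 625.8 and 1314.1 against 598.9 and 3329.3, and its sign turned without the array of 3329.3, to -0.22. The other tested MCM4 probe sets did not show that peak, and the next brightest stayed between 839.8 and 1156 in all 8 arrays.

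Doxycycline alone, from the control to the Doxycycline arrays, gave 0 calls among the 47 genes and 0 among all 12672 genes (0%) by limma. At an unadjusted p under 0.05 there were 5 replication genes, all lower, beside 2.41% of all genes, and the methods' t-test gave 3 before and 0 after Benjamini-Hochberg adjustment. The median change was -0.19 beside -0.01 for all genes, and 42 of 47 genes (89.4%) were below 0 against 51.5% of all genes. For 22 of 47 genes both arrays with Doxycycline lay below both without, beside 16.7% of all genes, and for 0 they lay above, beside 11.8%. ORC1 had the lowest value (-0.83, SE 0.24, unadjusted p = 0.00596, adjusted p = 1.00 by limma). GINS1, a subunit of the GINS complex, read 1056.5 and 1425.3 without Doxycycline and 806.4 and 652.4 with it (-0.75, SE 0.19, unadjusted p = 0.00279 by limma). MCM6, whose promoter is printed above, read 1265.3 and 1332.3 against 777.2 and 940.9 (-0.59, SE 0.15, unadjusted p = 0.00258 by limma). POLE2 read 612.5 and 675.6 against 419.8 and 485.5 (-0.50, SE 0.17), and RFC2, a clamp loader subunit, read 442.1 and 502.9 against 335 and 345.5 (-0.45, SE 0.15). By role, the medians were -0.22 for origin licensing, -0.23 for helicase activation, -0.21 for polymerases and primase, -0.34 for flap and nick processing, -0.04 for nucleotide supply and -0.07 for single-strand DNA binding.

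The 2 arrays with Doxycycline did not carry this equally. Over the 47 genes the median deviation from each gene's own mean was 0.08 and 0.16 in the control arrays, and -0.21 and 0.02 in the Doxycycline arrays. It was 0.01 and 0.15 in the inhibitor arrays, and -0.18 and -0.07 in the knockdown arrays. Without the second Doxycycline array, which had the ACTB ratio of 46.8, the median change with Doxycycline was -0.33, and without the first it was -0.11. With the ACTB ratio as a covariate, it was -0.21. The part of RNA quality in it was not tested further.

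The knockdown and the Doxycycline comparisons share no array, and both set arrays with Doxycycline against arrays without. Of the 47 genes, 35 (74.5%) had a value below 0 in both, beside 24.4% of all genes, and 2 were above 0 in both. In the lists most like them, 12 of 18 genes of G2 and mitosis (66.7%) and 21 of 44 other replication genes (47.7%) were below 0 in both. For 7 of 47 genes (14.9%), all 4 arrays with Doxycycline lay below all 4 without, beside 1.74% of all genes, and for 0 of 47 all lay above, beside 1.01%. These were CDC45, LIG1, MCM6, ORC1, POLA1, POLD3 and TK1. The count rests on the brightest probe set of each gene. MCM6, TK1 and POLD3 also had a second tested probe set, and in each of these the arrays overlapped. The highest array with Doxycycline and the lowest without read 155.1 and 141.2 for MCM6, 177.1 and 132.5 for TK1, and 112.5 and 106.8 for POLD3. CDC45, part of the active helicase, read 147.2, 181.7, 162.9 and 201 with Doxycycline and 222.1, 211.5, 217.7 and 202 without. TK1 read 235.9, 307.3, 269.6 and 281.1 with it and 315.4, 350.8, 369.6 and 325.7 without. POLD3, a subunit of the lagging strand polymerase, read 633.5, 608.5, 557.6 and 639.1 with it and 747.4, 724.4, 652.5 and 649 without. The gaps of CDC45, TK1 and POLD3 were narrow. So were those of LIG1, with 54.4 at most with Doxycycline and 55.7 at least without, and POLA1, with 498.9 and 502.7. That of ORC1 was wider, and none of the 7 genes passed the test in either line. In shHSF1 cells the hairpin and Doxycycline itself cannot be told apart, since no group had Doxycycline with NVP-HSP990 and the control hairpin.

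**Figure D4:**
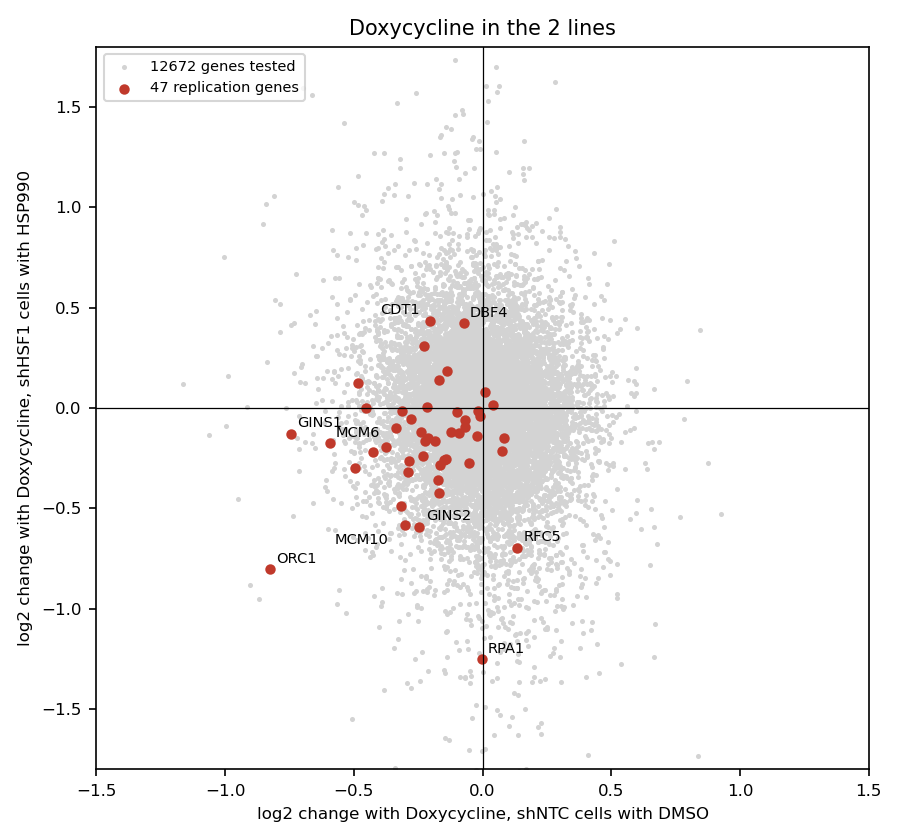
Log2 change from the control to the Doxycycline arrays (x axis) against that from the inhibitor to the knockdown arrays (y axis), for 12672 genes (grey, 33 beyond the axes) and 47 replication genes (red). Of the red points 35 lie below 0 on both axes, with ORC1 lowest on the x axis, at -0.83, and RPA1 lowest on the y axis, at -1.25, and near 0 on the x axis.

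The interaction, the knockdown change minus the Doxycycline change in shNTC cells, gave 0 calls among the 47 genes by limma, where 0.789% of all genes were called, and 4 of the 47 had an unadjusted p under 0.05, beside 10.6% of all genes. Its median was 0.02 beside 0.00 for all genes. RPA1 had the lowest value, given above, and RFC5 followed with -0.83 (SE 0.27, adjusted p = 0.249 by limma). CDT1 had the highest, 0.64 (SE 0.37), and GINS1 had 0.62 (SE 0.27, adjusted p = 0.454 by limma). The median half-width of the 95% interval here was 0.60, without adjustment for the number of genes. Values as large as those of RPA1 (-1.25) and RFC5 (-0.83) were not called. Smaller differences between the lines, which also differ in inhibitor, could therefore be missed.

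The last comparison set the knockdown arrays against the Doxycycline arrays, which differ in line, inhibitor and HSF1. It shares arrays with the comparisons above. RPA1 was again the only gene called among the 47 (-1.01, SE 0.17, adjusted p = 0.00824 by limma), where 5.83% of all genes were called and 2.99% were called lower. Without the second array of the knockdown group, RPA1 had an adjusted p of 0.0632 by limma, and its change was -0.96. RFC5 had -0.72 (SE 0.19, adjusted p = 0.0527 by limma). RFC2 read 335 and 345.5 in the shNTC arrays and 483.7 and 457.7 in the shHSF1 arrays (0.45, SE 0.15, adjusted p = 0.117 by limma), and CDT1 read 246.5 and 292.2 against 431.2 and 396.8 (0.60, SE 0.26, adjusted p = 0.245 by limma). The median of the 47 genes was 0.02 beside 0.01, and 22 of 47 were below 0.

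Genes with and without an E2F match in the promoter were set side by side. With Doxycycline in shNTC cells, the median change was -0.24 over the 20 genes with a match, of which 18 were below 0, and -0.15 over the 20 without, of which 19 were below 0. With knockdown it was -0.14 with a match and -0.18 without. The ranges overlapped in both comparisons, and ORC1, with the lowest Doxycycline value, and RPA1 both belonged to the genes without a match.

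The second arrays of each group, titled as repeats, differed from the first in the same direction for some genes. For 13 of 47 genes (27.7%) the second array was higher in all 4 groups, beside 12.6% of all genes, and for 3 it was lower in all 4, beside 16.7%. Among the 13 were MCM4, MCM7, PCNA, ORC6, RRM1, TYMS and RFC4. For PCNA the first arrays read 1394.7 to 1481 and the second 1748 to 2362.4. Each group held 1 array of either kind, so the mean changes between groups do not rest on the difference. It stays in the spread between arrays that the test used. The calls with the replicate number as a block differed and are given at the end.

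Further genes of the pathway were read from a second list of 45 replication genes that were not members, of which 44 were tested. With knockdown, 0 of them were higher and 1 was lower, ASF1A, a histone chaperone that hands histones to the chromatin assembly factor. It read 832.5 and 718.6 with the inhibitor and 228.4 and 222 after knockdown, against 774.8 to 931.1 in the shNTC arrays (-1.71, SE 0.16, adjusted p = 0.000475 by limma), and its second probe set gave -1.41. The median of the 44 genes was -0.08 with knockdown and -0.12 with Doxycycline. For 2 of these 44 genes (4.55%), ASF1B and CHEK1, all 4 arrays with Doxycycline lay below the 4 others, beside 1.74% of all genes. The same held for KIF20A, 1 of 18 genes of G2 and mitosis (5.56%). Of 18 genes of G2 and mitosis, 0 were called by limma in the knockdown comparison and 3 had an unadjusted p under 0.05, with a median of -0.20, and 16 of 18 were below 0. In the Doxycycline comparison their median was -0.14. Their median deviation was -0.20 and -0.21 in the knockdown arrays and -0.07 and 0.20 in the Doxycycline arrays.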

How the data were processed

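RNA of the 8 samples was amplified with the NuGen Ovation system and hybridized as biotin-labelled cDNA. The deposited values are linear signal intensities, made by the authors with MAS5 and scaled array by array (the version and the annotation are not given in the sources used here). They were used without further normalization. The precision is limited by the number of arrays, 2 per group.

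Groups and replicate numbers came from the titles. The description fields name other experiments and were not used. Probe sets with 1 gene symbol were kept, and a gene was represented by its brightest one (mean log2 over the arrays). Genes that reached the array median in at least 2 arrays were tested, as log2(signal + 16), with limma 3.58.1 (R 4.3.3) in 1 model of the 4 groups with an intensity trend, two-sided, adjusted by Benjamini-Hochberg over all 12672 genes and called under 0.05. The limma fit was tested on simulated data for the knockdown comparison, and the motif search on short test strings. Alternatives were other added values, filters and normalizations, all probe sets, no trend, only the arrays compared, a replicate block, arrays left out, and the methods' t-test, a Student test named for the whole paper.

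Members and lists were chosen with earlier results of these data known. Named genes were those called, the 4 largest changes per comparison, and the largest knockdown change per role. Others, among them MCM10, MCM3, DBF4, MCM5, GINS3, RFC2 and PCNA, and the ACTB alternatives and the E2F split, were chosen after values were seen.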

Additional observations from a re-analysis of the deposited data

Results flagged for a closer look

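The interaction term, Doxycycline in shHSF1 cells with NVP-HSP990 against Doxycycline in shNTC cells with DMSO, was called for 100 of 12672 genes (0.789%). These held 0 of the 47 members, and among the genes outside the members that were read here they included ASF1A and HSPA6. ASF1A, the histone chaperone of the second replication list, had an interaction of -1.71 on the log2 scale (SE 0.22, adjusted p = 0.0111 by limma), with a change of -1.71 in shHSF1 cells and of -0.00 in shNTC cells. Its adjusted p was 0.0575 and 0.0814 when the first or the second control array was left out, so the difference was no longer called. HSPA6, read as a check of the labels, had an interaction of -5.44 (SE 0.34, adjusted p = 0.000172 by limma), with -5.60 in shHSF1 cells and -0.16 in shNTC cells. HSPA6 read 15.5 or less in the shNTC arrays, near the array medians of 10.6 to 14.2, so it had no room to fall there, and this value does not compare Doxycycline between the lines.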

How the results depend on the processing

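Under 22 alternatives (20 for the interaction), the count of called replication genes moved as follows, and the cause was not tested. For NVP-HSP990 and for Doxycycline it was 0 throughout. In the knockdown comparison the count of 1 became 2 with quantile normalization (RFC5 and RPA1), 2 with each gene's probe sets averaged, 2 with all probe sets tested singly (both MCM10 and RPA1), 0 with the methods' t-test and 2 without both arrays of the highest ACTB ratio (RFC5 and RPA1). Leaving out each array in turn gave 1 to 2, with RFC5 added when either Doxycycline array was left out. In the comparison of knockdown with Doxycycline arrays, the count of 1 became 2 with quantile normalization, 3 with the mean of all probe sets (MCM10, RFC2 and RPA1), 2 with all probe sets singly and 0 with the methods' t-test. Leaving out each array gave 0, without the second knockdown array, to 2, without the first Doxycycline array. In the interaction the count of 0 became 1 (RPA1) with 64 added before the log and with quantile normalization, and leaving out each array gave 0 to 1.

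The replicate number as a block gave 4 called genes in the knockdown comparison (GINS2, ORC1, RFC5 and RPA1), 2 in the comparison of knockdown with Doxycycline arrays, 1 in the interaction, and no call with Doxycycline or NVP-HSP990. Over all genes it gave 752 calls in the knockdown comparison in place of 360. The deviations of same-numbered arrays correlated over genes with r = 0.685 for knockdown, 0.464 for Doxycycline, 0.276 for NVP-HSP990 and 0.0156 for knockdown against Doxycycline arrays. The labels do not say that a number marks a shared batch, and with 2 pairs a comparison this was not settled.

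The median change of the 47 genes with Doxycycline ran from -0.33 to -0.11 with each array left out, and was -0.33 without both arrays of the highest ACTB ratio. In the comparison of knockdown with Doxycycline arrays it ran from -0.11, without the second knockdown array, to 0.10, and in the interaction from -0.014 to 0.15, with 0.13 without both ACTB arrays. The medians for knockdown and NVP-HSP990 moved by less than 0.105, the pooled SD between arrays. The inhibitor value of HSF1, 0.49, became -0.0018 without the first inhibitor array and also without both ACTB arrays, in a range of -0.0018 to 0.97. That of MCM4, 0.63, became -0.032 with all probe sets averaged, and ranged from -0.22 to 1.86 with each array left out. Among the values of single genes and the unadjusted counts, 754 kept their direction and side of the threshold, 16 became called, 11 lost the call, 4 turned and 1 count moved (members under an unadjusted p of 0.05 with Doxycycline, from 5 to 3 with the methods' t-test). Of the lost calls, 7 came with that test, whose adjusted p was 0.328 or 0.375 for ASF1A, 0.324 or 0.685 for HSPA6, 0.472 for HSF1 and 0.413 or 0.367 for RPA1. HSF1 knockdown also had an adjusted p of 0.0652 by limma with only the arrays compared.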
